A study of Mus musculus with 20 samples.

Results

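The 10 genes described here encode the transcription factors that commit a precursor to the fat lineage: Pparg and its partner Rxra, the C/EBP genes Cebpa, Cebpb, Cebpd and Cebpg, the early B-cell factors Ebf1 and Ebf2, and the zinc-finger factors Zfp423 and Prdm16. They were chosen by name, with earlier results of these data known, and are 10 of 33899 genes in the deposited count table. All 10 passed the filter on low counts, as did 14242 genes in all. The libraries come from adipocyte precursors of female C57Bl6/J mice, 8 to 11 weeks old. The cells were sorted as CD45- and CD31- cells that carried CD29, CD34 and Sca1, with CD24 left free. The groups were VWAT HFD, VWAT SD, SWAT HFD and SWAT SD. VWAT is perigonadal and SWAT inguinal subcutaneous white fat. HFD is a high-fat diet with 60% lard eaten for 3 days, and SD is the standard diet, sampled at day 0. Each group has 5 libraries, and each library pools 3 mice, so a library is the unit of replication. The design allows HFD to be set against SD within each depot and VWAT against SWAT on each diet. All SD libraries are of day 0 and all HFD libraries of day 3, so diet cannot be told apart from sampling day.

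In cultured preadipocytes, Cebpb and Cebpd are induced first by adipogenic hormones and then switch on Pparg and Cebpa, which sustain each other and the genes of the mature fat cell. PPARγ binds DNA as a heterodimer with RXRα, and Cebpg lacks an activation domain and pairs with other C/EBP proteins. Zfp423 marks committed white preadipocytes, the EBF proteins act beside PPARγ, and Ebf2 and Prdm16 are known for the brown and beige fat programme.

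The genes of the gate were abundant. CPM is the reads of a gene per 1 M gene reads of its library, with those gene reads first multiplied by the library's TMM scaling factor. Cd34 had a mean of 1903 CPM in VWAT HFD, 1775 in VWAT SD, 2125 in SWAT HFD and 1794 in SWAT SD. Ptprc, which encodes CD45, stayed within 0.206 to 3.53 CPM. Pecam1, which encodes CD31, the other marker gated out, was at 13.6 to 54.4 CPM, and the 10 endothelial markers summed to 189 to 470 CPM. Adipoq, made by mature adipocytes, was at most 0.543 CPM in any library, but Plin4 of the same marker list reached 19.7 CPM. Of the leukocyte markers Lyz2 was highest, reaching 43.2 CPM. The 11 mature adipocyte markers summed to 4.23 to 30.2 CPM and the 12 leukocyte markers to 8.60 to 86.4 CPM. Reads on genes numbered 14.4 to 47.5 M a library. In 2 libraries, VWAT SD 5 and SWAT SD 5, depot markers went against the label. The visceral marker sum was 22.7 CPM in VWAT SD 5, against 168 to 322 CPM in the other VWAT SD libraries, and it was 201 CPM in SWAT SD 5, against 16.8 to 34.9 CPM in the other SWAT SD libraries. Results that rest on them are given with 20 and with 18 libraries. A second property varied between libraries, largely by diet. The correlation, across genes, of a library's deviation with transcript GC content was -0.631 to -0.221 in VWAT HFD and -0.537 to 0.608 in VWAT SD, and -0.559 to 0.0483 in SWAT HFD and -0.158 to 0.618 in SWAT SD. VWAT SD 1, at -0.537, lay among the HFD libraries by this measure. The differences with diet had an exact two-sided permutation p of 0.0238 in VWAT and 0.0159 in SWAT (0.117 and 0.0924 after Benjamini-Hochberg adjustment over 64 tests). Diet effects are therefore also given from a fit with a GC offset for each library.

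Start-site sequences are shown for Cebpa and Cebpb, whose messages are the most GC-rich of the members and whose values part on HFD, and for Pparg, a gene that C/EBP proteins are known to switch on. Each is the 250 bases before a RefSeq start in build GRCm38.p6, on the plus strand, from a table that held 8 of the 10 genes. Capitals mark matches on either strand to the GC box GGGCGG, the C/EBP motif TTGCNNAA, the short CRE motif TGACG and the CCAAT box.
Cebpa (chr7:35119043-35119292): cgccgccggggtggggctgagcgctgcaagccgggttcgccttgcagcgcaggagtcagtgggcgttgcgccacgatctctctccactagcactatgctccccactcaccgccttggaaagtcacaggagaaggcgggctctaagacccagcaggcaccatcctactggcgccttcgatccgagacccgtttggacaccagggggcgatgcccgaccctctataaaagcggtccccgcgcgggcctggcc
Cebpb (chr2:167688665-167688914): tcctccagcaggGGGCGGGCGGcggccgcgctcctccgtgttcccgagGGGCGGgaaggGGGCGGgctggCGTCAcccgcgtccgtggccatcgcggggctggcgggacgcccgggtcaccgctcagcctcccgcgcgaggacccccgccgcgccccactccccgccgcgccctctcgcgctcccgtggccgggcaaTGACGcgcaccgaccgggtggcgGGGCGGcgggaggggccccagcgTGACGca
Pparg, the most downstream of 3 starts (chr6:115421816-115422065): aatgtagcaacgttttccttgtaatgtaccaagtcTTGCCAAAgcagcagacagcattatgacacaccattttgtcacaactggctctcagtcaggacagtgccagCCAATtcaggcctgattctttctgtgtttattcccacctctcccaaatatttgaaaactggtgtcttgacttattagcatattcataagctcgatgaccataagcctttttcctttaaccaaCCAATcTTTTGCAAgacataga
The Cebpb window holds 5 GC boxes, of which 2 overlap, and 3 short CRE motifs, and its GC content is 81.6%. The Pparg window holds 2 C/EBP matches and 2 CCAAT boxes at a GC content of 40.8%. The other 2 Pparg windows, at 82.4% and 63.6% GC, hold no C/EBP match, 1 and 2 GC boxes, and 0 and 1 CCAAT boxes. None of these letters occurs in the Cebpa window, which has a GC content of 66.4%. Over 32851 such windows the median GC content was 52.4%, and 32.7% held a GC box, 9.56% the C/EBP motif, 17.8% the short CRE motif and 33.8% the CCAAT box. The full CRE TGACGTCA, the E-box CACGTG and the direct repeat DR1 bound by PPARγ with RXR, held by 1.55%, 6.02% and 0.0335% of all windows, were not matched in these 3. These matches describe letters, not bound sites.

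Per kilobase of exon and averaged over the 20 libraries, the levels ran in the order Cebpb at 207 CPM per kb, Cebpd at 152, Cebpa at 18.1, Ebf1 at 17.3, Rxra at 16.2, Ebf2 at 14.4, Zfp423 at 6.73, Cebpg at 5.65, Pparg at 3.44 and Prdm16 at 0.257. The early-acting C/EBP genes were thus the most abundant members and the factors of terminal fat cell differentiation far lower. Only the steps between Cebpd and Cebpa and between Pparg and Prdm16 separated the ranges over libraries. Between other neighbours the ranges overlapped, and Cebpa was above Ebf1 in 7 of 20 libraries. The length used is the union of a gene's annotated exons, 9756 bases for Ebf1 and 2636 for Cebpa. Their longest transcripts have 5981 and 2626 bases, so the order of the middle members depends on the length chosen. In GENCODE vM21, exons of a gene on the opposite strand overlap those of Cebpa, Cebpb, Cebpd, Cebpg, Ebf2 and Prdm16. The library kit marks strand, but the strand setting of the counting is not given in the sources used here, so those counts may hold reads of the other gene.

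**Figure D1:**
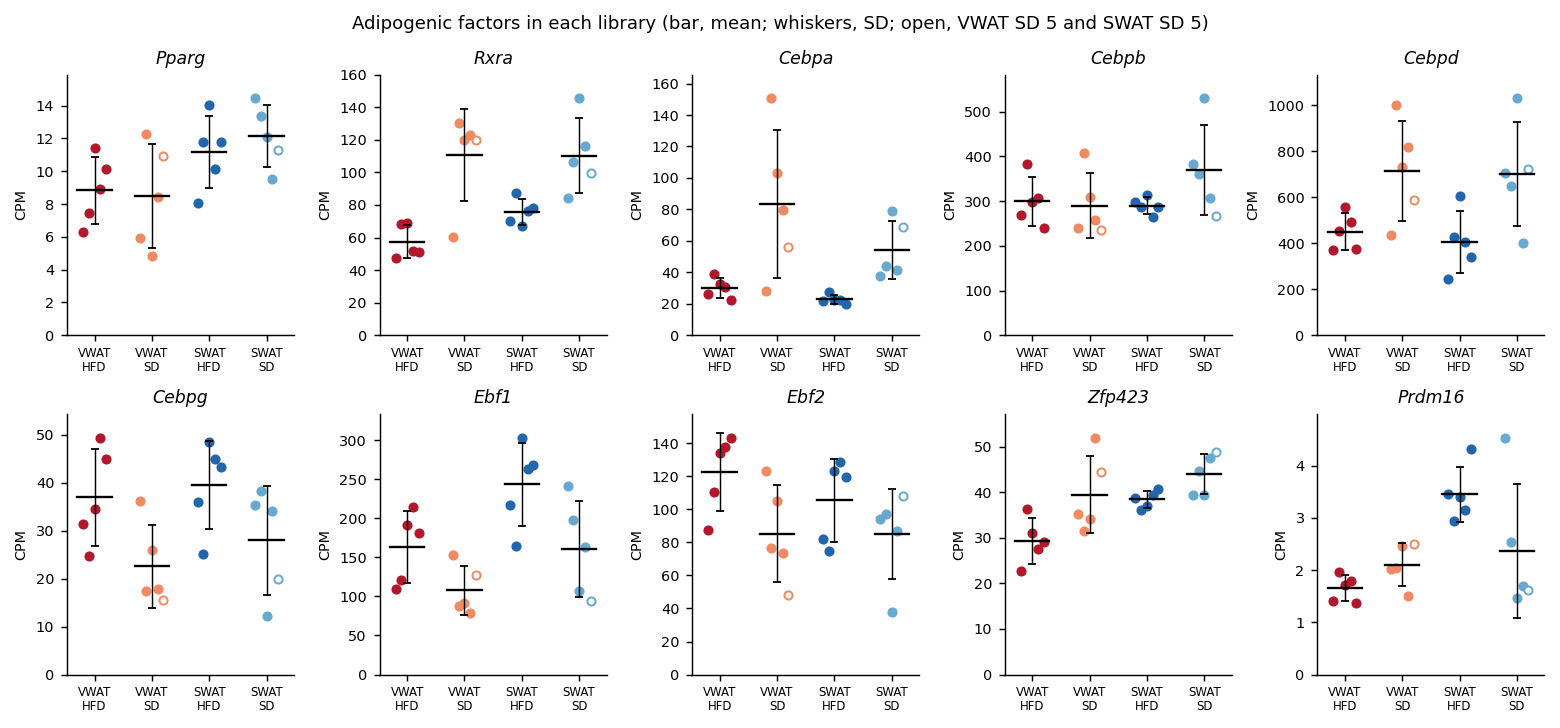
CPM of each member in every library, 1 point a library, with the group mean as a bar and the standard deviation as whiskers; open points are VWAT SD 5 and SWAT SD 5. Cebpa lay between 19.7 and 27.5 CPM in the SWAT HFD libraries, below every SWAT SD library, whereas Pparg overlapped between diets in both depots.

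In visceral precursors on HFD, Cebpa, Rxra, Cebpd and Zfp423 were lower than on SD, and Pparg and Cebpb were near their SD means. edgeR called 4 of the 10 members lower and 0 higher. Over all genes tested it called 45.7%, with 19.7% higher and 26% lower, so the members' share is close to that of all genes. The median log2 fold change was -0.15 over the members and -0.03 over all genes. In such bulk libraries, fewer cells of a type and less RNA per cell cannot be told apart.

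Of the receptor and its partner, Rxra alone passed. Pparg was at 6.31, 7.47, 11.4, 8.90 and 10.1 CPM in VWAT HFD libraries 1 to 5, against 5.90, 12.3, 4.85, 8.42 and 10.9 CPM in VWAT SD libraries 1 to 5. The HFD values fell within the SD range, and the log2 fold change was 0.06 ± 0.24 (SE; edgeR adjusted p = 0.855). Rxra was at 47.2, 68.5, 68.7, 51.9 and 51.0 CPM in VWAT HFD, against 60.6, 130.1, 119.8, 123 and 119.6 CPM in VWAT SD. Only VWAT SD 1 reached into the HFD range. Rxra fell by 0.94 ± 0.20 on the log2 scale (edgeR adjusted p = 0.00334), and it was called whichever single library was left out.

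Among the C/EBP genes the fall of Cebpa was the largest. Cebpa, which holds cells in the differentiated state, was at 26.1, 39.2, 32.3, 30.5 and 22.6 CPM in VWAT HFD, against 27.8, 151, 103, 79.8 and 55.9 CPM in VWAT SD. Every SD library but VWAT SD 1 lay above all HFD libraries. Cebpa fell by 1.47 ± 0.32 (edgeR adjusted p = 0.00354), and by 1.58 ± 0.32 with 18 libraries (edgeR adjusted p = 0.00517). It was called whichever library was left out, with fold changes of -1.64 to -1.09. Cebpd was at 372, 454, 559, 491 and 376 CPM in VWAT HFD, against 434, 1001, 731, 820.0 and 587 CPM in VWAT SD. The groups overlapped only through VWAT SD 1, and Cebpd fell by 0.67 ± 0.26 (edgeR adjusted p = 0.0403). That call held in 9 of 20 fits that left out 1 library, with adjusted p values of 0.0133 to 0.162. Cebpb, the other early factor, was at 269, 383, 299, 307 and 239 CPM in VWAT HFD, against 240.1, 408, 308, 257 and 235 CPM in VWAT SD. The groups overlapped throughout (log2 fold change 0.05 ± 0.19, edgeR adjusted p = 0.854). Cebpg was at 31.4, 24.7, 34.6, 49.4 and 44.9 CPM in VWAT HFD, against 36.1, 17.3, 25.9, 17.8 and 15.5 CPM in VWAT SD. Its fold change of 0.71 ± 0.30 did not pass by edgeR with TMM scaling (edgeR adjusted p = 0.0541). It passed by DESeq2 and with upper-quartile scaling (adjusted p = 0.0420 and 0.0442), and was 1.01 without VWAT SD 1 (edgeR adjusted p = 0.00571).

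Of the EBF and zinc-finger factors, Zfp423 alone passed. Zfp423 was at 22.6, 36.2, 31.0, 27.6 and 29.1 CPM in VWAT HFD, against 35.2, 31.5, 34.2, 52.0 and 44.4 CPM in VWAT SD. One HFD library, number 2, lay inside the SD range. Zfp423 fell by 0.43 ± 0.16 (edgeR adjusted p = 0.0354), but the fold change turned to 0.23 with the GC offset. The call was lost with 18 libraries (log2 fold change -0.38, edgeR adjusted p = 0.0941) and held in 7 of 20 fits that left out 1 library. Ebf1 was at 109, 121, 191, 214 and 181 CPM in VWAT HFD, against 153, 87.1, 91.7, 78.3 and 128 CPM in VWAT SD. Ebf2 was at 87.5, 110.4, 134, 138 and 144 CPM in VWAT HFD, against 123, 76.6, 105, 73.6 and 48.4 CPM in VWAT SD. The highest values of both genes stood in HFD libraries, but the groups overlapped, and neither passed (log2 fold changes 0.60 ± 0.27 and 0.52 ± 0.26, edgeR adjusted p = 0.0670 and 0.108). Both passed once VWAT SD 1 was removed, Ebf1 at 0.82 and Ebf2 at 0.75 (edgeR adjusted p = 0.0135 and 0.0195), and 7 of 10 members were then called beside 59% of all genes. Prdm16 averaged 1.65 ± 0.251 CPM in VWAT HFD and 2.11 ± 0.406 CPM in VWAT SD (standard deviation, n = 5 each; log2 fold change -0.35, edgeR adjusted p = 0.335).

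**Figure D2:**
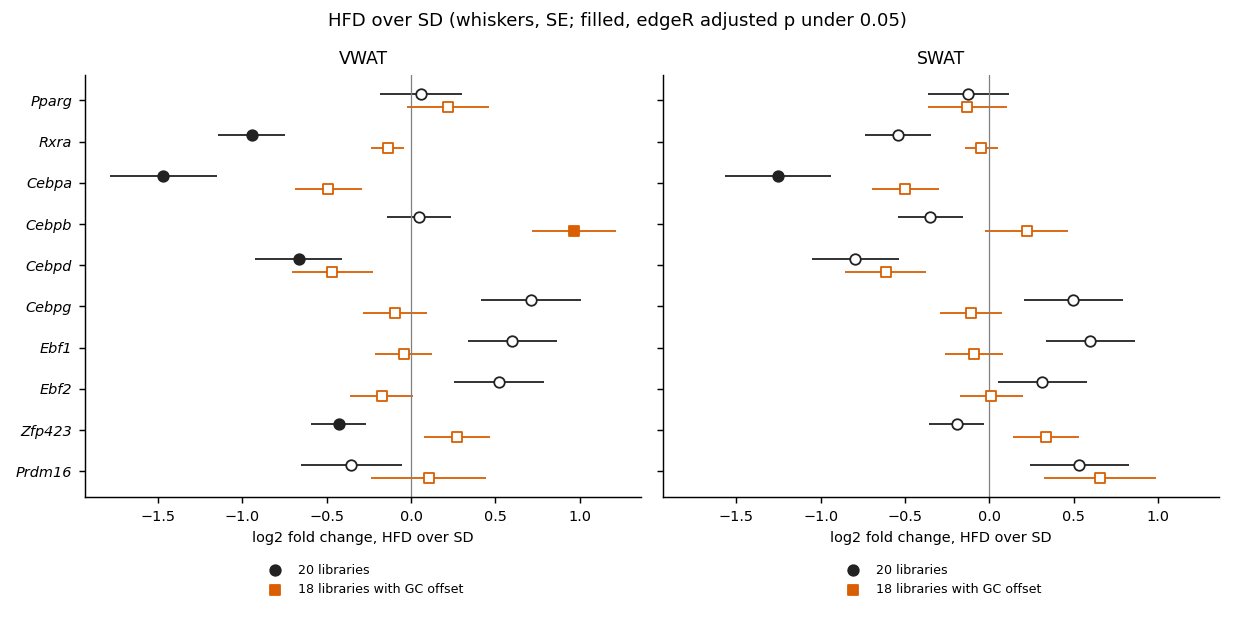
log2 fold change of HFD over SD for each member in VWAT (left) and SWAT (right), from all 20 libraries (circles) and from 18 libraries with a GC offset (squares), with SE as whiskers; filled symbols passed the edgeR test. In VWAT, Cebpa is at -1.47 without and -0.49 with the offset, and Cebpb is at 0.05 without and 0.97 with it.

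The order of the fold changes followed base composition. Over 14038 genes with a GC value, Spearman's correlation of the fold change with the GC content of the longest transcript was -0.689 in VWAT and -0.694 in SWAT, and over the 10 members it was -0.770 and -0.721. These are descriptions across genes of the same libraries. Of the 4 lower members, Cebpa is at 62.6% GC, Rxra at 57.0%, Zfp423 at 56.7% and Cebpd at 51.6%, below Prdm16 at 53.3%. Ebf1, Cebpg and Ebf2, at 43.1%, 43.3% and 45.0%, had positive values without passing. Genes within 2 percentage points of Cebpa had a median VWAT fold change of -0.98, and those like Rxra one of -0.84. Zfp423 was at -0.43 where genes of like GC content had a median of -0.82, and Cebpd was at -0.67 where they had one of -0.29. Cebpb has the highest GC content, 67.2%. The 49 genes within 2 points of it had a median of -1.05, against 0.05 for Cebpb itself.

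**Figure D3:**
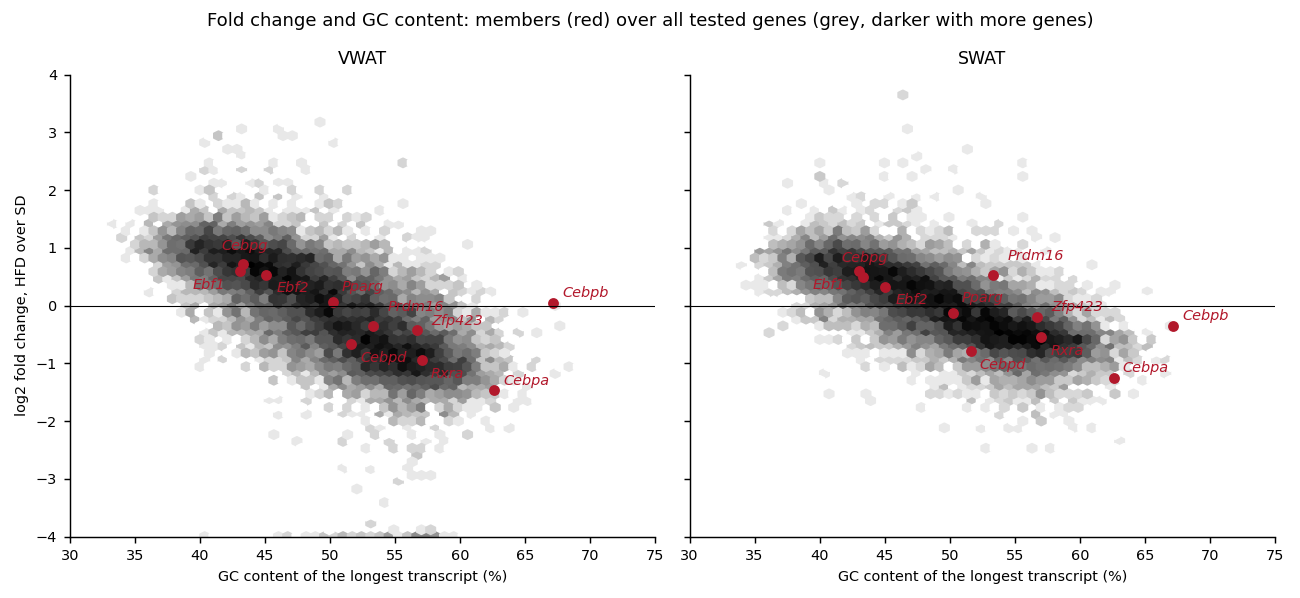
log2 fold change of HFD over SD against transcript GC content in VWAT (left) and SWAT (right), members in red over all genes tested (grey hexagons, darker where there are more genes; fold changes beyond 4 in size are drawn at the edge). Cebpb, at a GC content of 67.2%, sits above the slope of all genes, at 0.05 in VWAT and -0.35 in SWAT.

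With the GC offset the set of called members in VWAT changed. edgeR then called Cebpb alone, higher by 0.98 ± 0.24 (edgeR adjusted p = 0.0105), beside 19.4% of all genes. The offset rests on few genes at that GC content, as counted above. Cebpa was at -0.43 ± 0.20 (edgeR adjusted p = 0.120), Rxra at -0.19 ± 0.09 (edgeR adjusted p = 0.145), Cebpd at -0.40 and Zfp423 at 0.23. With 18 libraries and the offset, Cebpb was at 0.97 ± 0.25 (edgeR adjusted p = 0.0162; 15.7% of genes called) and Cebpa at -0.49 ± 0.20 (edgeR adjusted p = 0.0923). With 18 libraries and no offset, Cebpa, Cebpd and Rxra were called, beside 36.5% of genes. Pparg stayed between 0.06 and 0.22 in these fits and passed in none of them. The trend and diet move together, so an effect of diet that itself follows GC content cannot be told apart from the trend.

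In subcutaneous precursors Cebpa was the only member called, lower on HFD. Cebpa was at 21.8, 27.5, 22.4, 22.3 and 19.7 CPM in SWAT HFD, against 37.7, 43.8, 78.7, 41.7 and 68.8 CPM in SWAT SD. All HFD libraries lay below all SD libraries, as was so for 4.97% of genes (10.6% with either direction; 8.64% in VWAT). Cebpa fell by 1.25 ± 0.31 (edgeR adjusted p = 0.0488), 1 of 10 members beside 1.56% of all genes, with 0.857% higher and 0.702% lower. The median log2 fold change in SWAT was -0.16 over the members and -0.04 over all genes. The Cebpa call is at the threshold. It was lost with 18 libraries (-1.15 ± 0.32, edgeR adjusted p = 0.0620; 0.641% of genes called), with the GC offset (-0.61 ± 0.20, edgeR adjusted p = 0.105; 0.702% called) and with both (-0.50 ± 0.20, edgeR adjusted p = 0.161; 1.69% called). Of the fits that left out 1 library it held in 4, those without VWAT SD 1, VWAT SD 2, VWAT SD 5 or SWAT SD 1, with adjusted p values of 0.00745 to 0.152 over all 20.

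Other members in SWAT did not pass with 20 libraries. Cebpd was at 243, 427, 605, 407 and 341 CPM in SWAT HFD, against 706, 649, 1029.7, 399 and 724 CPM in SWAT SD. SWAT SD 4 alone lay in the HFD range (log2 fold change -0.79 ± 0.26, edgeR adjusted p = 0.0746). Rxra was at 70.0, 87.2, 67.3, 76.1 and 77.9 CPM in SWAT HFD, against 84.0, 106, 145, 116 and 99.4 CPM in SWAT SD. Again 1 library crossed, SWAT HFD 2 (-0.54 ± 0.20, edgeR adjusted p = 0.0856). Without VWAT SD 1 both were called, Cebpd at -0.77 and Rxra at -0.52 (edgeR adjusted p = 0.0266 and 0.0212; 23.3% of genes called). Pparg averaged 11.2 ± 2.22 CPM in SWAT HFD and 12.1 ± 1.89 CPM in SWAT SD, and Cebpb 290 ± 18.6 CPM in SWAT HFD and 369 ± 101 CPM in SWAT SD (standard deviation, n = 5 each; edgeR adjusted p = 0.720 and 0.189). Cebpg, Ebf1 and Ebf2 had positive fold changes of 0.50, 0.60 and 0.31, and Zfp423 one of -0.19 (edgeR adjusted p = 0.122 to 0.388). Prdm16 had a fold change of 0.53 ± 0.29 (edgeR adjusted p = 0.189). It was 0.95 without SWAT SD 1 (edgeR adjusted p = 0.0358; 15.2% of genes called), the SD library in which it was highest, at 4.54 CPM.

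No member's response to diet was shown to differ between the depots. The interaction, the VWAT diet effect minus that in SWAT, gave 0 of 10 members and 0% of genes past the edgeR threshold (DESeq2 and limma-voom also called 0; 605 genes had an edgeR p under 0.05 before adjustment). These counts are from 20 libraries, which hold both SD libraries with the other depot's markers. With 18 libraries 0 of 10 members and 1 of 14360 genes were called. Prdm16 had the lowest p among members with 20 libraries, at -0.89 ± 0.42 (edgeR adjusted p = 0.942). Cebpa was at -0.22 ± 0.44 and Cebpb at 0.40 ± 0.27.

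Between depots on HFD, Prdm16 was lower in visceral than in subcutaneous precursors. Prdm16 was at 1.41, 1.96, 1.72, 1.79 and 1.38 CPM in VWAT HFD, against 3.45, 2.94, 3.40, 3.15 and 4.32 CPM in SWAT HFD. No value was shared between the groups, which was so in this direction for 8.56% of genes and in either for 15.2%. The log2 fold change was -1.06 ± 0.30 (edgeR adjusted p = 0.0336), 1 of 10 members beside 6.45% of all genes, with 2.82% higher and 3.63% lower. It was -1.07 with 18 libraries (edgeR adjusted p = 0.0191; 10.8% of genes called) and held in 10 of 20 fits that left out 1 library, with adjusted p values of 0.0166 to 0.115. With the GC offset it was -0.98 (edgeR adjusted p = 0.0565; 10.1% called).

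Ebf1 stood next. It was at 109, 121, 191, 214 and 181 CPM in VWAT HFD, against 217, 165, 303, 263 and 268 CPM in SWAT HFD. SWAT HFD 2 was the only library of its group inside the VWAT range, and the fold change was -0.57 ± 0.26 (edgeR adjusted p = 0.225). With the GC offset Ebf1 was called lower in VWAT HFD, at -0.69 ± 0.20 (edgeR adjusted p = 0.0325), and with 18 libraries as well at -0.69 ± 0.16 (edgeR adjusted p = 0.00454), where Prdm16 was also called and 16% of genes were. Pparg was at -0.34 ± 0.24 and Rxra at -0.40 ± 0.20 (edgeR adjusted p = 0.480 and 0.265). Cebpa was at 0.40 ± 0.31, Cebpb at 0.05 ± 0.19 and Ebf2 at 0.22 ± 0.26, and none of the 3 passed.

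Between depots on SD no member passed with 20 libraries, nor did any gene (0%; DESeq2 called 9 and limma-voom 0, and 1009 genes had an edgeR p under 0.05 before adjustment), and for 0.154% of genes the groups did not overlap. That comparison holds both libraries with the other depot's markers. With 18 libraries 8.45% of genes were called and still 0 of 10 members. Ebf1 was then at 153, 87.1, 91.7 and 78.3 CPM in VWAT SD, against 241, 197, 106 and 163 CPM in SWAT SD. VWAT SD 1 and SWAT SD 3 overlapped the other depot (-0.79 ± 0.28, edgeR adjusted p = 0.0967). With the GC offset too, Ebf1 was called at -0.73 ± 0.18 (edgeR adjusted p = 0.00856; 12.6% of genes called). Prdm16, the factor lower in VWAT on HFD, was at -0.37 ± 0.33 with 18 libraries on SD (edgeR adjusted p = 0.648). The interaction above is the test of that difference between the diets, and Prdm16 passed it neither with 20 nor with 18 libraries.

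**Figure D4:**
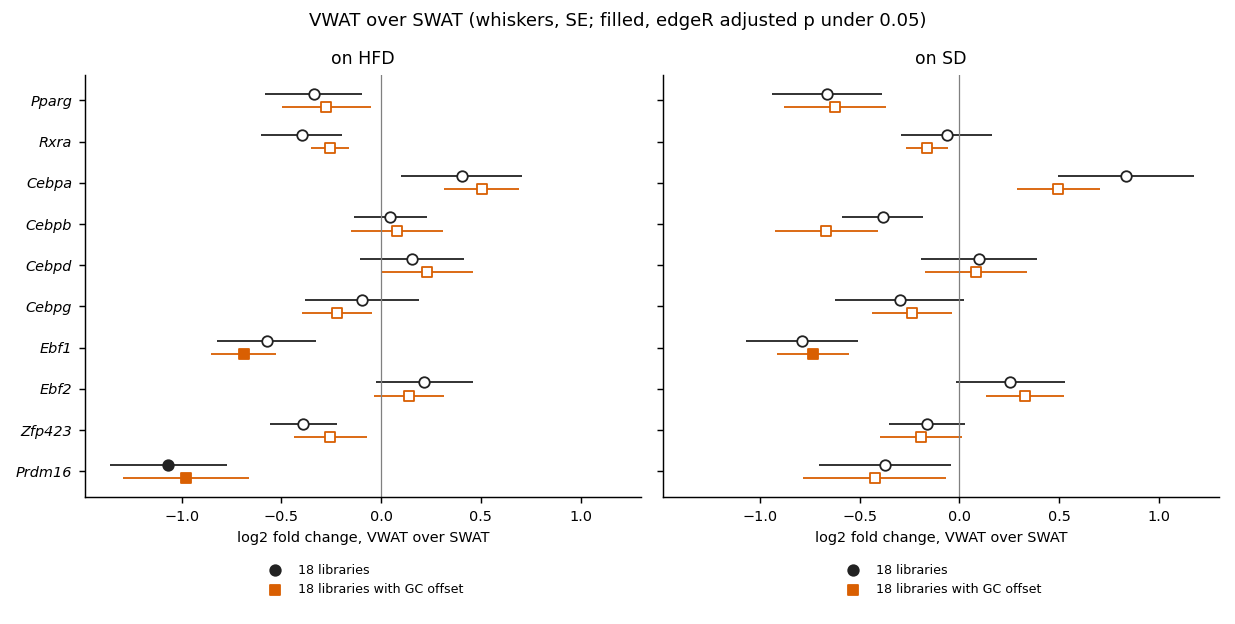
log2 fold change of VWAT over SWAT for each member on HFD (left) and on SD (right), from 18 libraries without (circles) and with a GC offset (squares), with SE as whiskers; filled symbols passed the edgeR test. Prdm16 is filled in both fits on HFD, and Ebf1 is filled with the offset on both diets, at -0.69 and -0.73.

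Ratios of 2 factors within a library depend little on how libraries are scaled (0.5 CPM was added to both). Over 8 ratios in 4 comparisons, 0 of 32 passed after adjustment, where 5 libraries against 5 allow no exact two-sided permutation p below 0.00794, and the lowest adjusted p was 0.0508. Cebpa over Cebpb, the late factor over the early one, had a log2 ratio of -3.30 ± 0.0709 in VWAT HFD and -1.97 ± 0.668 in VWAT SD (standard deviation, n = 5 each). All HFD libraries lay below all SD libraries (difference -1.33, exact permutation p = 0.00794). In SWAT the ratio was -3.65 ± 0.197 on HFD and -2.78 ± 0.517 on SD, again with no overlap, the highest HFD library at -3.35 and the lowest SD library at -3.33 (difference -0.87, exact permutation p = 0.00794). With 18 libraries it was -2.99 ± 0.254 in SWAT SD (n = 4), still with no overlap (difference -0.66, exact permutation p = 0.0159). The VWAT difference was then -1.35 (exact permutation p = 0.00794). Rxra over Pparg was 2.64 ± 0.323 in VWAT HFD and 3.66 ± 0.510 in VWAT SD (difference -1.01, exact permutation p = 0.00794). In SWAT that ratio differed by -0.40 and the groups overlapped (exact permutation p = 0.151). Rxra, at 57.0% GC, and Pparg, at 50.2%, lie at different points of the GC trend. Genes of like GC content had median VWAT fold changes of -0.84 and -0.08. The part of the GC trend in the ratio of Rxra over Pparg was not tested.

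Between depots on HFD, Ebf2 over Ebf1 was -0.39 ± 0.193 in VWAT HFD and -1.20 ± 0.145 in SWAT HFD. Every VWAT library lay above every SWAT library (difference 0.82, exact permutation p = 0.00794). Prdm16 over Ebf2 was -5.82 ± 0.319 in VWAT HFD and -4.72 ± 0.332 in SWAT HFD, with no overlap (difference -1.10, exact permutation p = 0.00794). On SD with 18 libraries, Ebf2 over Ebf1 was -0.10 ± 0.215 in VWAT SD and -1.18 ± 0.268 in SWAT SD (standard deviation, n = 4 each; difference 1.09, exact permutation p = 0.0286, adjusted 0.0847). The ratio of a pair whose GC contents lie close, as those of Ebf1 and Ebf2 do, compares genes at like points of the GC trend. Prdm16 and Ebf2, at 53.3% and 45.0%, do not lie so close.

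**Figure D5:**
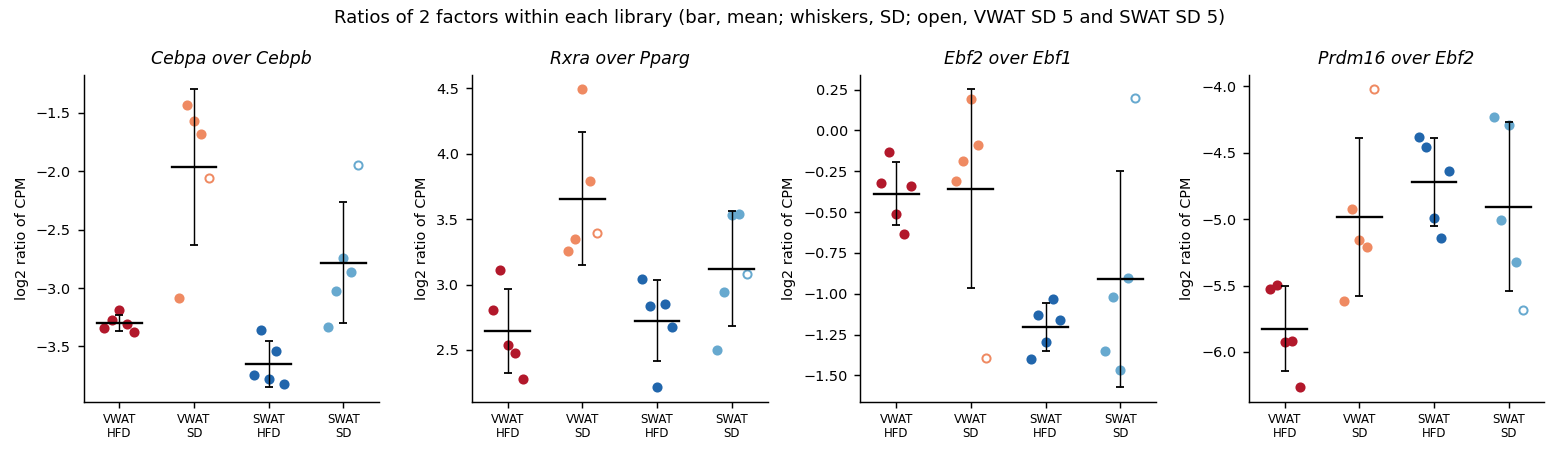
log2 ratio of CPM of 2 factors in each library, with group mean and standard deviation; open points are VWAT SD 5 and SWAT SD 5, and each panel has its own scale. In each depot Cebpa over Cebpb is lower in every HFD library than in any SD library, and on SD the open points of Ebf2 over Ebf1 sit with the other depot.

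Markers of other cell types were lower on HFD in part. The diet differences in the sums given here for adipocyte, leukocyte, epithelial or immediate early genes had adjusted p values of 0.0635 to 0.520 (exact permutation). The smallest p that 5 libraries against 5 allow, 0.00794, came to 0.0635 after adjustment over 64 tests. No sum passed. The adjusted value of the smallest p depends on how many tests reach it, and the tests do not show that the sums were alike. The summed mature adipocyte markers were 4.23 to 12.9 CPM in VWAT HFD and 5.07 to 28.8 CPM in VWAT SD, and 4.68 to 10.8 CPM in SWAT HFD and 9.78 to 30.2 CPM in SWAT SD. Of 11 such markers 7 could be tested, of which 0 were higher and 3 lower in VWAT, and Lep never exceeded 5 reads. The leukocyte markers summed to 11.0 to 36.2 CPM in VWAT HFD and 8.60 to 59.4 CPM in VWAT SD, with 0 of 11 tested higher and 2 lower, a smaller share than the 26% of all genes called lower. Epithelial markers were lower in 7 of 7 in VWAT but in 1 of 7 with 18 libraries. They summed to 0.891 to 3.81 CPM in VWAT HFD. VWAT SD 5 was at 182 CPM and the other VWAT SD libraries were at 2.17 to 9.45 CPM. In SWAT the epithelial sum was 11.3 to 90.2 CPM in SWAT HFD and 3.02 to 203 CPM in SWAT SD. The 18 dissociation and immediate early genes, of which 9 were lower and 0 higher in VWAT, summed to 18012 to 36099 CPM in VWAT HFD and 20768 to 58561 CPM in VWAT SD. In SWAT, where 1 of the 18 was lower, their sum did not overlap between diets, at 24249 to 38072 CPM in SWAT HFD and 42575 to 56923 CPM in SWAT SD (exact permutation p = 0.00794, adjusted 0.0635). With 18 libraries and the GC offset, 3 of the 7 adipocyte markers and 0 of the 18 immediate early genes were lower in VWAT, beside 9.16% of all genes. The part of these cells and of this response in the levels of Cebpa and Cebpd was not tested. Proliferation markers summed to 55.9 to 231 CPM in VWAT HFD and 5.67 to 44.5 CPM in VWAT SD, with no overlap (exact permutation p = 0.00794, adjusted 0.0635). Of these markers 8 of 8 were higher in VWAT, beside 19.7% of all genes. In SWAT their sum was 23.4 to 134 CPM in SWAT HFD and 3.41 to 11.0 CPM in SWAT SD. Again there was no overlap (exact permutation p = 0.00794, adjusted 0.0635), and 7 of 8 were higher, beside 0.857% of all genes.

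Near relatives of the factors mostly did not pass. In VWAT, 1 of 12 tested relatives was higher and 2 were lower, with a median log2 fold change of 0.29, and in SWAT 0 passed. Over all genes tested, 19.7% were higher and 26% lower in VWAT, and 1.56% were called in SWAT. These shares also stand beside the counts of the lists below. Prdm1, a zinc-finger repressor, rose by 1.91 ± 0.45 to 2.10 CPM in VWAT HFD, against 0.564 CPM in VWAT SD (edgeR adjusted p = 0.00442). Rxrb, another RXR gene, fell by 1.35 ± 0.31 to 33.5 CPM in VWAT HFD, against 85.2 CPM in VWAT SD (edgeR adjusted p = 0.00449), in the same direction as Rxra. Ebf4 fell by 1.18 ± 0.46 (edgeR adjusted p = 0.0421). After removal of both SD 5 libraries and with the GC offset, none of these passed, Prdm1 at 1.25, Rxrb at -0.39 and Ebf4 at -0.42 (edgeR adjusted p = 0.0628, 0.0933 and 0.451). Cebpe had at most 3 reads in any library.

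Coregulators carry the activating or repressing enzymes to these factors. Of 20 tested, 7 were higher and 4 lower in VWAT (median 0.42), beside 19.7% and 26% of all genes. In SWAT 0 passed, beside 1.56% of all genes. The corepressors Ncor1 and Nrip1 rose by 0.83 ± 0.23 and 1.03 ± 0.31 (edgeR adjusted p = 0.00829 and 0.0139). The deacetylase of the NCoR complex, Hdac3, fell by 0.87 ± 0.20 to 42.9 CPM in VWAT HFD, against 78.3 CPM in VWAT SD (edgeR adjusted p = 0.00426), and Tle3, a coregulator that works with PPARγ, fell by 0.83 ± 0.19 (edgeR adjusted p = 0.00439). With 18 libraries and the GC offset, Hdac3 was at -1.31 and Ncor1 at 0.59 and both passed (edgeR adjusted p = 0.00777 and 0.0404), while Nrip1 was at 0.17 and Tle3 at -0.39 and did not. Ppargc1a, the coactivator of the brown programme, had at most 19 reads in any library.

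Other activators of adipogenesis moved both ways, 7 higher and 9 lower of 26 tested in VWAT (median 0.26), beside 19.7% and 26% of all genes. Snai2 rose by 1.33 ± 0.27 and Nfia, a factor of brown fat, by 1.00 ± 0.23 (edgeR adjusted p = 0.00311 and 0.00404), but neither passed from 18 libraries with the offset, Snai2 at 0.39 and Nfia at 0.13 (edgeR adjusted p = 0.248 and 0.554). Esrra, a nuclear receptor for mitochondrial genes, fell by 0.89 ± 0.22 in VWAT (edgeR adjusted p = 0.00518) and was at -0.75 with 18 libraries and the offset (edgeR adjusted p = 0.0206). In SWAT 1 of 26 passed, Srebf1, the lipogenic factor, which fell by 1.28 ± 0.26 in VWAT and by 1.05 ± 0.26 in SWAT (edgeR adjusted p = 0.00311 and 0.0477) and was called with 18 libraries and the GC offset in SWAT alone (-0.51 ± 0.13, edgeR adjusted p = 0.0447). Among repressors, mostly factors and signals that hold precursors undifferentiated, 7 were higher and 9 lower of 32 tested in VWAT (median 0.00). Of all genes 19.7% were higher and 26% lower there, and in SWAT 0 repressors passed. Id3, which blocks helix-loop-helix factors, fell by 1.43 ± 0.31 to 294 CPM in VWAT HFD, against 791 CPM in VWAT SD (edgeR adjusted p = 0.00351). Irf3 fell by 1.27 ± 0.25 and the anti-adipogenic ligand Wnt10b by 0.84 ± 0.19 (edgeR adjusted p = 0.00311 and 0.00441). Id3 and Irf3 still passed with 18 libraries and the GC offset, at -0.74 and -0.52 (edgeR adjusted p = 0.0446 and 0.0197). Gata2, which holds precursors undifferentiated, was at -3.24 in SWAT (edgeR adjusted p = 0.0720) and at -0.56 with 18 libraries, so that value rests on SWAT SD 5.

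Genes known as targets of these factors, mostly enzymes and carriers of lipid storage, included 5 higher and 13 lower of 33 tested in VWAT (median -0.23), beside 19.7% of all genes higher and 26% lower. Lpl, the lipase that frees fatty acids from lipoproteins, rose by 1.40 ± 0.25 to 1215 CPM in VWAT HFD, against 459 CPM in VWAT SD (edgeR adjusted p = 0.00309). Agpat2, an enzyme of triglyceride synthesis, fell by 1.48 ± 0.32 to 12.9 CPM in VWAT HFD, against 36.0 CPM in VWAT SD (edgeR adjusted p = 0.00354), and the amino acid transporter Slc1a5 by 0.80 ± 0.18 (edgeR adjusted p = 0.00386). With 18 libraries and the GC offset 0 targets were higher and 7 lower (median -0.26), beside 6.51% of all genes higher and 9.16% lower. Agpat2 was among them, at -0.69 (edgeR adjusted p = 0.0181), while Slc1a5 was at -0.09 and Lpl at 0.56 and neither passed (edgeR adjusted p = 0.674 and 0.0772). In SWAT 2 targets were higher and 1 lower, beside 0.857% of all genes higher and 0.702% lower. Fabp4 and Cd36, which bind and take up fatty acids, rose there to 64.4 and 55.5 CPM in SWAT HFD, against 27.2 and 17.1 CPM in SWAT SD (edgeR adjusted p = 0.0472 for both), and were at log2 fold changes of 0.42 and 0.83 with 18 libraries and the offset, where neither passed. The third was Cfd, named here after its value was seen, at -2.47 ± 0.58 (edgeR adjusted p = 0.0474). Of 12 brown and beige genes tested, a list that includes Prdm16, 2 were higher and 3 lower in VWAT (median -0.51, and 0.09 with 18 libraries and the offset) and 0 passed in SWAT (median -0.12). In VWAT 19.7% of all genes were higher and 26% lower. The thyroid hormone activating enzyme Dio2 rose by 2.16 ± 0.75 (edgeR adjusted p = 0.0249; 0.0568 with 18 libraries). Tbx1 and Lhx8 were at -3.66 and -3.60, but at 2.22 and 0.20 with 18 libraries, at mean levels under 1 CPM in VWAT. Kcnk3 fell by 1.48 ± 0.55 (edgeR adjusted p = 0.0341) but was at -0.81 with 18 libraries and the offset (edgeR adjusted p = 0.205). Ucp1 had at most 4 reads in any library.

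Across the 20 libraries Cebpa and Cebpd varied together (Pearson's r = 0.830 of log2 CPM), as did Ebf2 and Cebpg (0.822) and Ebf1 and Cebpg (0.814), whereas Ebf1 and Cebpa ran opposite (-0.806). Pparg had no such partner among the members, and its values with them lay between -0.154 and 0.406. These are descriptions over libraries that share diet, depot and the GC trend. Outside the members, the genes most like Cebpa were Hagh, Prkaca and Smo (r = 0.962, 0.962 and 0.960), and those most like Ebf2 were Ddr2, Spnb2 and Klf7 (0.973, 0.957 and 0.938). Pparg was most like Cyp4f17, Tmem181b-ps and Zcchc5 (0.903, 0.828 and 0.800), and Cebpb most like Rgs16, Sgpl1 and Atp6v1b2 (0.779, 0.691 and 0.688). The search covered 10132 genes.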

How the data were processed

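The authors deposited whole-number read counts per gene for 20 libraries. The submitters' processing notes name TopHat, HTSeq and the mm9 build, with no versions, and the strand setting of the counting is not given in the sources used here. Of 33929 rows, 5 HTSeq summary rows (27.0% of reads on average) and 25 rows whose symbols had become dates (0.0598% to 0.132% of reads) were left out. Genes were filtered with edgeR's filterByExpr (14242 kept), scaled by TMM and tested with edgeR 4.0.16 (R 4.3.3) by its robust quasi-likelihood test, with 1 mean per group and Benjamini-Hochberg adjustment over all genes tested, at a threshold of 0.05. SE was taken from the fold change and F. The p-values measure the spread between pools of 3 mice. The GC offset is a lowess curve (span 0.3) of each library's deviation on the GC content of the longest GENCODE vM21 transcript, known for 98.6% of tested genes. Alternatives included DESeq2 1.42.0, limma-voom (limma 3.58.1), other scalings, 18 libraries, the unassigned read share as a covariate and each library left out. On simulated counts at this design (VWAT, HFD over SD, 14066 genes) the edgeR fit recovered 26% of genes changed by a log2 fold of 1 and 93% of those changed by 2, with 5 false calls. With a GC trend added to the simulation (14042 genes) it made 155 false calls, and the fit with the GC offset made 5. Which fit makes fewer false calls in the deposited libraries, where the trend varied within groups and moved with diet, was not tested. Ratios were tested by exact two-sided permutation of libraries in scipy 1.17.1. The members and lists were chosen with earlier results of these data known. From each list of pathway genes the rule named the 3 of lowest p by diet in VWAT and the 2 of lowest p in SWAT.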

Additional observations from a re-analysis of the deposited data

Results flagged for a closer look

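Of 40 groups of 5 values examined for a library far from the rest, 1 was picked out, where chance alone picks out about 1 in 20. Rxra was at 60.6 CPM in VWAT SD 1, and the other 4 VWAT SD libraries were at 119.6 to 130.1 CPM. The gap is 0.849 of the group's range, above the Dixon value of 0.71. That library is also the VWAT SD library whose deviation falls with GC content (correlation -0.537, against 0.499 to 0.608 in the others), and the part of this in its Rxra level was not tested. Without it, Rxra was at a log2 fold change of -1.05 for HFD over SD in VWAT (edgeR adjusted p = 4.3e-05).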

How the results depend on the processing

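The calls depended on how the GC trend was handled and on single libraries, and the cause of each change below was not tested. In VWAT, HFD over SD, 4 members and 6502 genes were called. Members called were 5 with DESeq2 (7077 genes) and 5 with upper-quartile factors (6492 genes), which both add Cebpg. There were 2 with no expression filter (5419 of 22889 genes) and 1 with the GC offset (2759 genes). With 18 libraries and the GC offset there was 1 (2251 genes). The unassigned share as covariate gave 1 (1880 genes), and 18 libraries with that covariate gave 0 (18 genes). Zfp423 changed sign under the GC offset (0.23), 18 libraries with the offset (0.27) and the replicate block with the offset (0.27). Leaving out 1 library gave 2 to 7 members and 4432 to 8505 genes, the most without VWAT SD 1.

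In SWAT, HFD over SD, 1 member and 222 genes were called. There were 3 members with DESeq2 (2100 genes), 2 with only the groups compared (1939 genes), and 0 with no filter (44 genes), 18 libraries (92 genes), the GC offset (100 genes), 18 libraries and the offset, the unassigned share (0 genes) or 18 libraries and that share (0 genes). limma-voom called 426 genes. Leaving out 1 library gave 0 to 4 members and 0 to 3362 genes, with 3362 genes and 3 members without VWAT SD 1, and 2185 genes and 4 members without SWAT SD 1. The interaction called 0 genes, and 1 with 18 libraries, with or without the GC offset.

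VWAT over SWAT on SD called 0 genes, against 9 with DESeq2, 1214 with 18 libraries, 1803 and 1 member with 18 libraries and the GC offset, 1318 with 18 libraries and the unassigned share, and 0 to 590 with 1 library left out, the most without VWAT SD 5. On HFD it called 1 member and 918 genes. There were 0 members with no filter (750 genes) and 2 with 18 libraries and the GC offset (2296 genes). With 1 library left out there were 0 or 1 (460 to 1417 genes). DESeq2 called 1449 genes, 18 libraries 1544, the GC offset 1439, 18 libraries and the unassigned share 1845 and only the groups compared 2767.

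Replicate numbers were not taken as pairs, since no label ties them to shared mice and same-numbered libraries did not all deviate together. Their correlation was 0.0922 to 0.547 between VWAT HFD and SWAT HFD, -0.213 to 0.371 between diets in VWAT and -0.306 to 0.259 in SWAT. Between VWAT SD and SWAT SD it was 0.594 for number 1 and -0.657 for number 5, the 2 libraries whose depot markers go against their labels. The fit with the number as a replicate block called 3 members in SWAT (2088 genes) and 0 between depots on HFD (272 genes), where Prdm16 was at -1.06 (edgeR adjusted p = 0.0695). With the GC offset added, the block gave 1 member in VWAT (3055 genes) and 0 in SWAT (476 genes). Between depots on HFD it then gave 0 (885 genes). In SWAT SD 4, the shallowest library, the 1.69 CPM of Prdm16 rest on 22 reads, and depth limits this member most.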

Other observations

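Between depots on HFD, several genes that act for or against these factors differed in VWAT over SWAT with 20 libraries. They were picked out of the lists after their values were seen, and every value here is a log2 fold change from edgeR. The repressors of adipogenesis moved both ways. Foxc2, a forkhead factor, was higher in VWAT HFD by 2.74 ± 0.44 and Gata2 by 4.16 ± 1.05 (edgeR adjusted p = 0.00362 and 0.0224), while Wnt10b was lower, at -0.89 ± 0.19, and Irf4 at -1.77 ± 0.40 (edgeR adjusted p = 0.0108 and 0.0119). Of 32 repressors tested, 2 were higher and 3 lower, beside 2.82% of all genes higher and 3.63% lower. Among targets, Plin1, which coats lipid droplets, was at 1.76 ± 0.52 and Acsl1, which activates fatty acids, at 1.20 ± 0.27. The lipase inhibitor Angptl4 was at -1.22 ± 0.28 and Fabp4 at -1.01 ± 0.26 (edgeR adjusted p = 0.0134 and 0.0211). Beside Prdm16, Tbx1 and Lhx8 of the brown and beige list were lower in VWAT HFD, at -4.93 ± 1.26 and -6.09 ± 1.28 (edgeR adjusted p = 0.0215 and 0.00849). Both encode transcription factors of development, and their mean levels in VWAT HFD were 0.0679 and 0.0383 CPM, against 2.20 and 2.84 CPM in SWAT HFD.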
